A study of Mus musculus with 59 samples.

Results

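The comparison described here set hippocampal RNA of APOE4 mice that were cycling irregularly at 15 months against that of APOE4 mice that were cycling irregularly at 9 months. The members were the libraries that the sample labels place in the APOE4 15M-Irreg group (7 libraries) and the APOE4 9M-Irreg group (6 libraries), which together are 13 of the 59 libraries of the series. Genotype and cycling class were the same on both sides, so chronological age was the labelled factor that differed.

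The series profiled hippocampi of female mice in which the mouse Apoe gene had been replaced by human APOE3 or APOE4, at 3 ages and in 3 classes of estrous cycling: regular, irregular and acyclic. Each genotype had 6-month regular (6M-Reg), 9-month regular (9M-Reg), 9-month irregular (9M-Irreg), 15-month irregular (15M-Irreg) and 15-month acyclic (15M-Acyc) groups. Irregular cyclers were animals whose cycles had lengthened by vaginal cytology, and the study treated them at 9 months as an early and at 15 months as a late stage of the perimenopausal transition. Animals that did not meet the cycling criteria for their age had been set aside by the study, so the 15M-Irreg mice were those still cycling at that age.

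All 13 mice were female, homozygous for the APOE4 targeted replacement, and received no treatment; each library came from the hippocampus of 1 animal. The human gene sits in the mouse locus in every tissue, so no cell type is singled out by the model. The ages were monitored and collected as separate cohorts and the labels name no batch, so age and any difference between collections cannot be told apart. The APOE3 15M-Irreg (7) and 9M-Irreg (6) groups made the same age step on the other genotype. The APOE4 15M-Acyc (6) and 9M-Reg (5) groups made an age step with no library in common with the 13, but with cycling class changing as well.

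Microglia, the macrophages of the brain, keep a set of surface receptors and complement genes switched on at rest, and in aged or amyloid-bearing tissue add a set called disease-associated microglia genes, several of which depend on the lipid receptor Trem2. APOE, secreted mainly by astrocytes and taken up by microglia, is the main lipid carrier of the brain, and its APOE4 allele is the common inherited risk factor for late-onset Alzheimer's disease. The mitochondrial respiratory chain, built from many short nuclear transcripts and a few mitochondrial ones, has been a recurring subject of work on the aging female brain.

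Of 18584 genes tested, 4 were called between the groups at an adjusted p under 0.05 (edgeR quasi-likelihood test, Benjamini-Hochberg over all genes), which is 0.0215% of the genes, and all 4 were higher at 15 months. They were C4b, a complement component, Mpeg1 and Itgax, both genes of microglia and other macrophages, and Kdr, the main vascular endothelial growth factor receptor. No gene was called lower. An unadjusted p under 0.05 was reached by 1182 genes (6.36%), 659 of them higher (3.55%) and 523 lower (2.81%), and 49.8% of all genes had a log2 difference above 0. P-values here measure the spread between animals, estimated over all 59 libraries.

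Total counts ran from 20845347 to 28989591 in the 9M-Irreg libraries and from 22764691 to 29995186 in the 15M-Irreg libraries; the means of 24875630 and 26064513 differed with p = 0.474 (two-sided exact permutation test, 7 against 6 libraries, 1716 divisions). No libraries of a group were copies of each other: the most alike pair differed by a chi-square of 5.21 per degree of freedom. Markers of the hippocampus and its cell types were present in every library, with summed neuronal markers at 9003 to 10830 CPM (TMM-scaled counts relative to library size) and summed astrocyte markers at 2714 to 3196 CPM. Counts assigned to mouse Apoe, the replaced gene, were low in all 13 libraries, at 2.818 to 5.003 CPM at 9 months and 2.739 to 4.419 CPM at 15 months, with a log2 difference of -0.12 and an adjusted p of 0.963 in edgeR. Human APOE was not part of the reference to which the reads were assigned and has no value here.

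4 libraries stood apart before any comparison. Summed over 12 choroid plexus markers, 9M-Irreg replicate 1 held 53.3 CPM and 15M-Irreg replicates 5, 6 and 7 held 252.8, 29.77 and 51.42 CPM, against 3782 to 5665 CPM in the other 9. The first principal component of the 13 libraries, with 27.8% of the variance, separated these 4 from the rest, and 20 of the 59 libraries of the series lay below 1000 CPM in the same sum. The choroid plexus is the ventricular tissue that makes cerebrospinal fluid and lies against the hippocampus. Counts of genes are therefore also given without these 4 libraries.

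**Figure D1:**
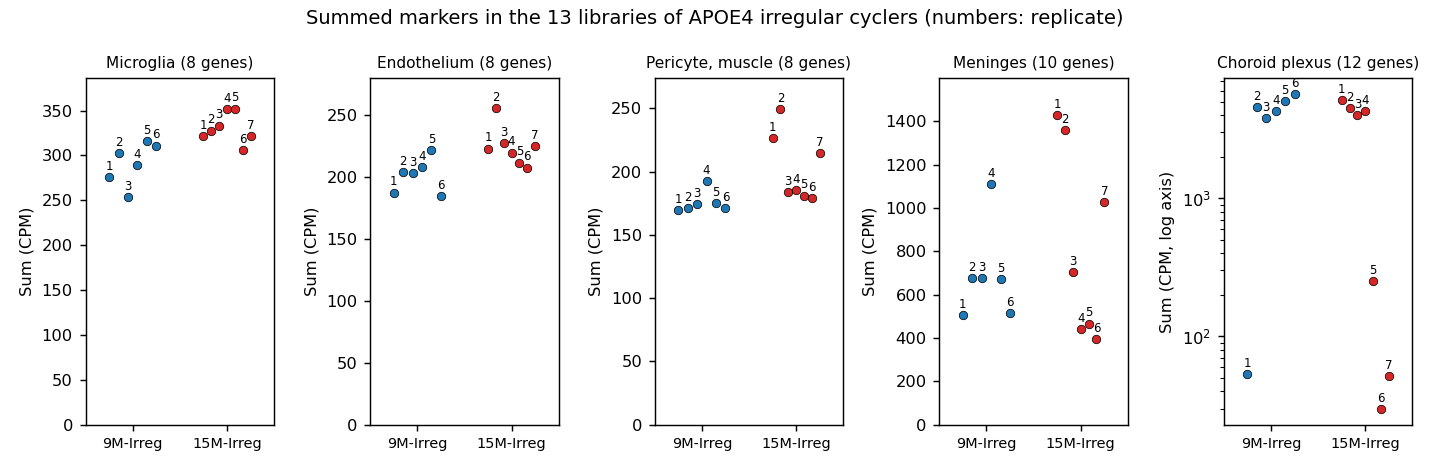
Summed CPM of 5 sets of cell type markers in each of the 13 libraries, with 9M-Irreg and 15M-Irreg side by side; each numeral is the replicate at its value, and the choroid plexus panel has a log axis. The microglial sums of 15M-Irreg (306.4 to 352.3 CPM) sat mostly above those of 9M-Irreg (253.6 to 315.9 CPM), while 4 libraries sat far below the others for choroid plexus.

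C4b (ENSMUSG00000073418; chr17:34728380-34743882, minus strand, GRCm38) encodes the mouse form of complement C4, which the C1 complex cleaves at the start of the classical pathway. Its lowest, median and highest levels were 72.08, 82.46 and 110.1 CPM in the 9M-Irreg libraries and 107.7, 135.2 and 184.7 CPM in the 15M-Irreg libraries. The groups met only at their edges: 2 libraries of each group lay between 105.8 and 110.1 CPM, and 15M-Irreg replicate 4 was the highest. C4b rose by 0.63 on the log2 scale (SE 0.11), a 1.54-fold change, with an adjusted p of 0.0215 in edgeR. C4a, a near-identical neighbouring copy between which reads can be split, had a log2 difference of 0.22 (unadjusted p = 0.072), so the division of reads between the copies is uncertain.

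In the other APOE4 groups C4b was at 74.9 ± 10.4 CPM (SD, n = 6) in 6M-Reg, 84.3 ± 6.03 CPM (n = 5) in 9M-Reg and 118 ± 25.3 CPM (n = 6) in 15M-Acyc. Both 15-month groups thus had a higher mean than each of the 3 younger groups, and their ranges met, 107.7 to 184.7 CPM in 15M-Irreg and 88.97 to 156 CPM in 15M-Acyc. In APOE3 irregular cyclers C4b was at 97.5 ± 11.2 CPM (n = 6) at 9 months and 120.1 ± 12.9 CPM (n = 7) at 15 months. That step, a log2 difference of 0.30 (SE 0.11), had an adjusted p of 0.586, and the difference between the genotypes' steps, 0.33, had an adjusted p of 0.901 in edgeR.

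Mpeg1 (ENSMUSG00000046805; chr19:12460779-12465283, plus strand, GRCm38) encodes perforin-2, a pore-forming protein of macrophages. Levels were 21.59, 25.4 and 30.56 CPM (lowest, median, highest) in 9M-Irreg and 30.13, 33.54 and 40.75 CPM in 15M-Irreg. A single pair of libraries overlapped, 9M-Irreg replicate 4 at 30.56 CPM and 15M-Irreg replicate 7 at 30.13 CPM. Mpeg1 rose by 0.40 on the log2 scale (SE 0.08), 1.32-fold, with an adjusted p of 0.0313 in edgeR. Means of Mpeg1 in the younger APOE4 groups were 23.3 CPM in 6M-Reg and 26.6 CPM in 9M-Reg, and the 15M-Acyc mean was 32.4 CPM. The APOE3 step was 0.23 on the log2 scale with an unadjusted p of 0.0044, and the test of the difference between genotypes gave an unadjusted p of 0.125.

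Itgax (chr7:128129547-128150657, plus strand, GRCm38) encodes the integrin CD11c, found on dendritic cells and on disease-associated microglia. It was the least abundant of the called genes, with 3 to 8 counts per library in 9M-Irreg and 12 to 42 in 15M-Irreg, or 0.103, 0.193 and 0.332 CPM against 0.429, 0.634 and 1.75 CPM (lowest, median, highest). The groups did not overlap, which was so for 25 of all genes tested in the higher direction (0.135%), and 15M-Irreg replicate 4 was the highest library. Itgax rose by 1.94 on the log2 scale (SE 0.40), 3.82-fold, with an adjusted p of 0.044 in edgeR. Its 9M-Reg and 6M-Reg libraries reached 0.482 and 0.473 CPM, above every 9M-Irreg library, and the 9M-Irreg group had the lowest mean of the APOE4 groups for this gene. The means of its transcript abundance per length were 0.188 TPM at 9 months and 0.340 TPM at 15 months, with wide spreads.

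Kdr (chr5:75932827-75978458, minus strand, GRCm38), the VEGF receptor of endothelial cells, lay at 9.822, 10.83 and 11.96 CPM in 9M-Irreg and at 14.09, 15.67 and 18.17 CPM in 15M-Irreg. No 15-month irregular library reached down to a 9-month one. Kdr rose by 0.59 on the log2 scale (SE 0.12), 1.5-fold, with an adjusted p of 0.0382 in edgeR. Across the APOE4 series the 6M-Reg, 9M-Reg and 9M-Irreg means were 11.3, 10.6 and 10.8 CPM, whereas the 15M-Irreg and 15M-Acyc means were 16.2 and 15.8 CPM. All 5 APOE3 groups had means of Kdr between 12.8 and 14.6 CPM. The difference between the genotypes' steps was 0.41 on the log2 scale with an unadjusted p of 0.0149, and it was not called over all genes.

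**Figure D2:**
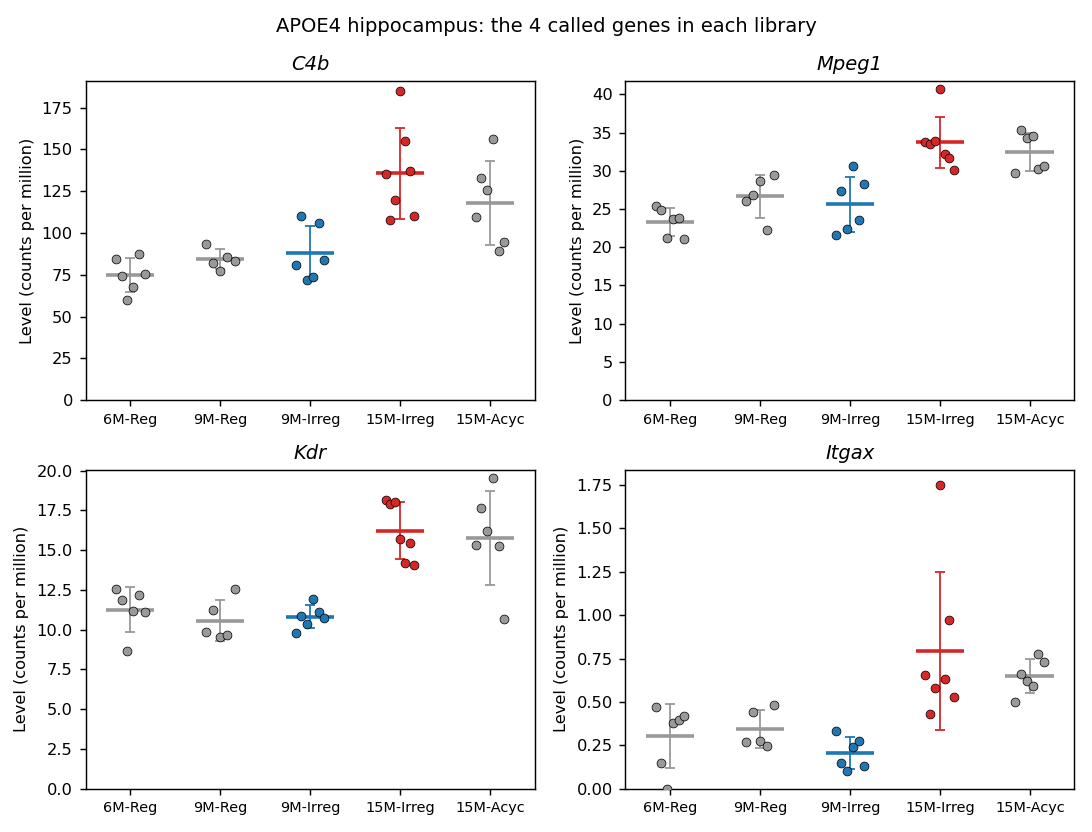
CPM of C4b, Mpeg1, Kdr and Itgax in every APOE4 library, arranged by the 5 groups from 6M-Reg to 15M-Acyc; points are libraries and bars are the mean ± SD. Both 15-month groups have higher means than the 3 younger groups for all 4 genes, and 15M-Irreg and 9M-Irreg do not overlap for Kdr and Itgax.

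Promoter windows are shown for 4 genes: Itgax for the called genes, and 1 gene each for the microglial, interferon and respiratory chain values below. Ctss, Oas1a and Atp5k were chosen as the genes of smallest p in their lists whose window holds the motif searched for that list, so their matches were fixed by the choice and are an illustration, not a result. Each is the 250 bases before the RefSeq start site on the gene's own strand, in GRCm38.p6 coordinates: chr7:128129300-128129549 (plus strand) for Itgax, chr3:95526536-95526785 (plus strand) for Ctss, chr5:120907526-120907775 (minus strand) for Oas1a and chr5:108434400-108434649 (minus strand) for Atp5k. Capitals mark every match, on either strand, to 3 motifs. These were GAGGAA, a core bound by the macrophage factor PU.1; the core of the interferon-stimulated response element (ISRE), which is GAAA, any 2 bases and GAAA again; and the NRF1 site, which is GCGCA, any base and GCGC.
Itgax: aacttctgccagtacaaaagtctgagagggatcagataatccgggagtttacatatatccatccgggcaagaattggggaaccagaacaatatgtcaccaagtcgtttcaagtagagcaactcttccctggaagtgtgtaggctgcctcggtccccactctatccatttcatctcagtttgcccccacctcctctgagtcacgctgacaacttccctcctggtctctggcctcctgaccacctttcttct
Ctss: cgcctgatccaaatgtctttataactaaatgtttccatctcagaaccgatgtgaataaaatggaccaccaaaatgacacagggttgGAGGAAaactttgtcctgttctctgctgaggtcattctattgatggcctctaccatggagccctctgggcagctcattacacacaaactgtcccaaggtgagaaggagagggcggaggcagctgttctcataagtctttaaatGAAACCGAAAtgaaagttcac
Oas1a: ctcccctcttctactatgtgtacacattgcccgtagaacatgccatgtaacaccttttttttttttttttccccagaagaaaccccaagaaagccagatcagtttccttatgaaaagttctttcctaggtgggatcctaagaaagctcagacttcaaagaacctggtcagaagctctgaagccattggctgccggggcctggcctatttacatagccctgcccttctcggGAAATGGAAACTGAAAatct
Atp5k: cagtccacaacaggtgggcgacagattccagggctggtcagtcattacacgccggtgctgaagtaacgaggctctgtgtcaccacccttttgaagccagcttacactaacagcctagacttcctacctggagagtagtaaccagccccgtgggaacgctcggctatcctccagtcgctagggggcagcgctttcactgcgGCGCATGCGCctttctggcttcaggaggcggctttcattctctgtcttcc
The Itgax window held no match, and neither did those of the called genes Mpeg1 and Kdr, which are not printed. The Ctss window held GAGGAA starting 164 bases and GAAACCGAAA starting 21 bases before the start site. The Oas1a window held a pair of overlapping matches to the ISRE core starting 20 and 14 bases before the start. The Atp5k window held the NRF1 site as GCGCATGCGC starting 50 bases before it.

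Of all 32851 RefSeq windows, which belong to 27025 genes, 23.3% held GAGGAA, 2.98% held the ISRE core and 3.74% held the NRF1 site. Among the 13201 tested genes with a window the shares were 25.9%, 3.21% and 7.79%. GAGGAA was found in 6 of 11 homeostatic microglia genes and 9 of 18 disease-associated microglia genes, the ISRE core in 10 of 21 interferon response genes, and the NRF1 site in 6 of 32 complex I and 5 of 29 complex III to V genes. A match describes the letters of the window and is not a measured binding site. C4b had no window in the table.

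The genes next in order of p, none of them called, included Ctss, Gfap, Nckap1l and Pik3r5. Ctss, the lysosomal protease cathepsin S, had levels of 53.65, 56.3 and 60.01 CPM at 9 months and 59.99, 68.39 and 85.74 CPM at 15 months. The ranges of Ctss met at 60 CPM, where the lowest 15-month library fell just under the highest 9-month library, and its log2 difference of 0.31 (SE 0.06) had an adjusted p of 0.0522 in edgeR. Gfap, the intermediate filament of astrocytes, had levels of 384.9 to 474.2 CPM and 438.1 to 600.3 CPM, a log2 difference of 0.28 (SE 0.07, adjusted p = 0.129). Nckap1l, an actin regulator of blood cells and microglia, did not overlap between the groups, at 8.976 to 10.44 CPM and 10.8 to 13.83 CPM, with a log2 difference of 0.33 (adjusted p = 0.129). Pik3r5, a regulatory subunit of the PI3-kinase of leukocytes, had a log2 difference of 0.64 (adjusted p = 0.127).

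Among the 15 genes with the smallest p in the higher direction, Pcdhb6 and Pcdhb2, clustered protocadherins that label single neurons at their surface, had log2 differences of 0.63 (adjusted p = 0.0932) and 0.55 (adjusted p = 0.11), and Pcdhb2 did not overlap, at 1.803 to 3.44 CPM against 3.697 to 4.541 CPM. 3222401L13Rik, a noncoding RNA, had a log2 difference of 0.71 (adjusted p = 0.0889). Dmp1, a matrix protein, had a log2 difference of 0.40 (adjusted p = 0.135) and Gxylt2, a xylosyltransferase, one of 0.63 (adjusted p = 0.136).

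Homeostatic microglia genes lay above 0 in 17 of 17 tested, with a median log2 difference of 0.22 against -0.0005 over all genes, and 10 of them had an unadjusted p under 0.05. None was called. The C1q chains, which start the classical complement pathway, had like differences: C1qa had a log2 difference of 0.26, from 30.8 to 40.7 CPM at 9 months and from 38.39 to 45.87 CPM at 15 months, C1qb one of 0.22 and C1qc one of 0.23. Sall1, a transcription factor that maintains microglial identity, did not overlap between the groups, at 15.3, 16.29 and 17.29 CPM against 18.24, 19.47 and 20.83 CPM (log2 difference 0.24, unadjusted p = 0.00086). The receptors Gpr34, Itgam, Cx3cr1 and Csf1r had log2 differences of 0.41, 0.28, 0.16 and 0.14. Leaving out any single library kept all 17 above 0, with medians from 0.18 to 0.25. In bulk tissue, more cells of a type and more RNA per cell cannot be told apart.

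Disease-associated microglia genes lay above 0 in 21 of 25, with a median of 0.20, 10 at an unadjusted p under 0.05, and Itgax called. Cst7, an inhibitor of lysosomal cathepsins and a leading gene of that state, had 1 to 10 counts per library at 9 months and 4 to 16 at 15 months, with a log2 difference of 1.55 (SE 0.48) and an adjusted p of 0.405 in edgeR. Clec7a, the receptor dectin-1, had 1 to 17 counts at 9 months and 13 to 24 at 15 months (log2 difference 0.93, SE 0.32, adjusted p = 0.547). Both groups of counts overlapped, and for Cst7 it was 9M-Irreg replicate 6, at 0.4448 CPM against 0.1378 CPM or less in the other 5, that reached into the 15-month range. Without that library the log2 difference of Cst7 was 2.37, with an adjusted p of 0.0946 in edgeR, the most favourable of the fits with 1 library left out. Those fits ran from 1.37 to 2.37, with adjusted p from 0.0946 to 0.777, and Cst7 was called in none. Trem2, the lipid-sensing receptor, and Tyrobp, its signalling adaptor, had log2 differences of 0.20 and 0.21, with Trem2 at 9.532 to 12.58 CPM and 11.96 to 13.17 CPM. Lyz2, lysozyme of macrophages, had a log2 difference of 0.54 and the chemokine Ccl3 one of 1.44. The 4 members below 0 were Ctsb (-0.03), Ctsd (-0.04), Cd63 (-0.04) and Cd52 (-0.01).

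Microglial markers, summed over 8 genes, were at 253.6 to 315.9 CPM in 9M-Irreg and 306.4 to 352.3 CPM in 15M-Irreg, and the ranges met over a short stretch. All 8 markers lay above 0, with a median of 0.15. Aif1, the microglial protein IBA1, had a log2 difference of 0.20 (SE 0.13, unadjusted p = 0.124), from 3.032 to 3.952 CPM and from 3.524 to 4.992 CPM. Markers of macrophages at the borders of the brain lay above 0 in 8 of 8, with a median of 0.22 and none at an unadjusted p under 0.05, and in 5 of 8 with a median of 0.03 without 15M-Irreg replicate 1. With any other single library left out that median lay between 0.13 and 0.41. The part of these cell types in the rise of Mpeg1 and Itgax was not tested.

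Complement genes lay above 0 in 14 of 17, with a median of 0.22, 5 at an unadjusted p under 0.05, and C4b called. C3, the point where the complement pathways meet, had levels of 3.067 to 4.433 CPM at 9 months and 3.386 to 9.198 CPM at 15 months, a log2 difference of 0.65 (SE 0.26, unadjusted p = 0.0168). The regulators Cd55 and Cd59a, which protect cells from complement, had log2 differences of -0.23 and -0.33, and the protease C1ra one of -0.01. Of the complement genes, only C4b passed the test.

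Interferon response genes lay above 0 in 29 of 30, with a median of 0.26, and 4 had an unadjusted p under 0.05. With 1 library left out that number ran from 1 to 6. Oas2, a sensor of double-stranded RNA, did not overlap, with 7 to 15 counts at 9 months and 14 to 34 at 15 months, or 0.290 to 0.572 CPM and 0.578 to 1.417 CPM (log2 difference 1.02, SE 0.31). Parp14, an ADP-ribosyltransferase, had a log2 difference of 0.54. Oas1a, whose promoter is printed above, was at 0.334 to 0.667 CPM and 0.375 to 1.667 CPM, with a log2 difference of 0.71. Antigen presentation genes lay above 0 in 17 of 20, with a median of 0.15 and none at an unadjusted p under 0.05. Cd74, the invariant chain, had a log2 difference of 0.59 and H2-D1, a class I heavy chain, one of 0.25. With 1 library left out these ran from 0.095 to 0.98 for Cd74 and from 0.11 to 0.35 for H2-D1.

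The interferon and antigen presentation values depended on single libraries of both groups. In 15M-Irreg replicate 4, H2-D1 was at 82.58 CPM, Psmb8 (an immunoproteasome subunit) at 7.166 CPM and B2m (the class I light chain) at 94.33 CPM, each above every other library of the 13. The other 6 libraries of its group had at most 58.1, 4.258 and 68.59 CPM for the same genes. Without this library, interferon response genes lay above 0 in 23 of 30 with a median of 0.14, and antigen presentation genes in 7 of 20 with a median of -0.01. Homeostatic microglia genes then lay above 0 in 17 of 17 with a median of 0.21, and disease-associated genes in 21 of 25 with a median of 0.19. Without 9M-Irreg replicate 5, antigen presentation genes lay above 0 in 18 of 20, with a median of 0.36 and 3 at an unadjusted p under 0.05, and their median was 0.10 without 9M-Irreg replicate 1 or 3 and 0.23 without 15M-Irreg replicate 6. The interferon median was 0.16 without 9M-Irreg replicate 1.

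Reactive astrocyte genes lay above 0 in 24 of 27, with a median of 0.20 and 4 at an unadjusted p under 0.05. Without 9M-Irreg replicate 3 the median was 0.13, with 23 of 27 above 0 and 2 at an unadjusted p under 0.05. Besides Gfap, Vim, the other main filament of reactive astrocytes, had a log2 difference of 0.22, Aspg one of 0.45 and Serpina3n one of 0.17. Fkbp5, a glucocorticoid-induced chaperone partner, had a log2 difference of -0.12. With 1 library left out Serpina3n ran from 0.09 to 0.22 and Fkbp5 from -0.18 to -0.08. General astrocyte markers lay above 0 in 6 of 8 with a median of 0.03, which ran from 0.01 to 0.05 with 1 library left out. Their sums overlapped widely, at 2714 to 3101 CPM and 2714 to 3196 CPM. Cytokine and chemokine genes lay above 0 in 20 of 26 with a median of 0.10, among them Ccl2 (1.54) and Ccl12 (0.91), which attract monocytes, and 5 had an unadjusted p under 0.05. That number was 3 without 9M-Irreg replicate 5 or 15M-Irreg replicate 2 or 4. The other 6 cytokine and chemokine genes lay below 0, down to -0.42. Il1b had mean levels of 0.463 TPM (SD 0.243) at 9 months and 0.343 TPM (SD 0.167) at 15 months.

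**Figure D3:**
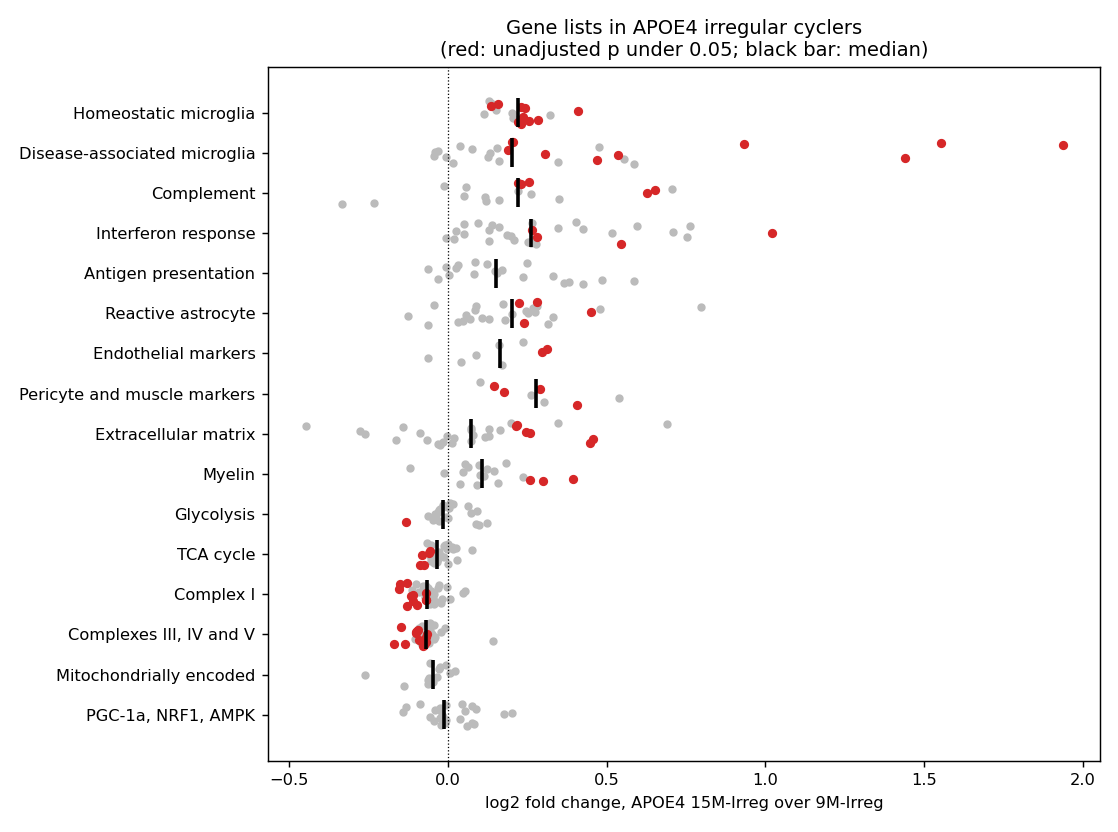
Log2 difference, 15M-Irreg minus 9M-Irreg in APOE4, of each tested gene in 16 lists; points in red have an unadjusted p under 0.05 and black bars are list medians. Homeostatic microglia genes all lie to the right of 0 (median 0.22), and complex I and complex III to V genes lie mostly to the left (medians of -0.07).

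Endothelial markers lay above 0 in 7 of 8, with a median of 0.17. Flt1, another VEGF receptor of the vessel wall, did not overlap between the groups, at 43.64, 46.31 and 48.26 CPM against 51.67, 58.89 and 59.39 CPM, with a log2 difference of 0.31 (SE 0.08, adjusted p = 0.207). Cdh5, the cadherin of endothelial junctions, Cldn5, a tight-junction protein, and Pecam1 had log2 differences of 0.30, 0.24 and 0.16, and Ly6c1 one of -0.06. Endothelial sums were 184.2 to 221.2 CPM at 9 months and 207.3 to 255 CPM at 15 months, and the part of endothelial content in the rise of Kdr was not tested.

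Pericyte and smooth muscle markers lay above 0 in 8 of 8, with a median of 0.28, and 4 had an unadjusted p under 0.05. Without 15M-Irreg replicate 2 the median was 0.15, again with 8 of 8 above 0 but 2 at an unadjusted p under 0.05. The contractile genes Myh11 and Acta2 had log2 differences of 0.41 and 0.54, and the pericyte channel genes Kcnj8 and Abcc9 had 0.29 and 0.18. The summed level in 15M-Irreg ran from 179 to 249.3 CPM, with replicates 1, 2 and 7 at 226.2, 249.3 and 214.4 CPM, against 169.7 to 192.7 CPM in 9M-Irreg. Replicates 1, 2 and 7 also had the highest meningeal sums of their group, 1428, 1361 and 1027 CPM, where 9M-Irreg had 507.7 to 1112 CPM, and meningeal markers lay above 0 in 8 of 10 with a median of 0.35. That median was 0.17 without 15M-Irreg replicate 1, 0.16 without 15M-Irreg replicate 2 and 0.60 without 9M-Irreg replicate 4. The part of meningeal tissue in these values was not tested.

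Extracellular matrix genes lay above 0 in 19 of 30, with a median of 0.07, and 6 had an unadjusted p under 0.05, all higher. Col4a1 and Col4a2, the collagens of vascular basement membrane, had log2 differences of 0.22 and 0.21, with Col4a1 at 57.73 to 68.96 CPM and 66.24 to 79.92 CPM. Lama4, a vascular laminin, had a log2 difference of 0.46, Tnc, a matrix protein of astrocytes, 0.45, and Fn1, fibronectin, 0.26. Without the 4 libraries low in choroid plexus markers the list lay above 0 in 24 of 30, with a median of 0.15. With 1 library left out the median ran from 0.03, without 15M-Irreg replicate 2 (3 at an unadjusted p under 0.05), to 0.13, without 9M-Irreg replicate 4, and it was 0.04 without 15M-Irreg replicate 1 or 9M-Irreg replicate 1 and 0.05 without 9M-Irreg replicate 6.

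Most genes of the respiratory chain lay below 0. Complex I subunits, which take electrons from NADH, were above 0 in 3 of 36, with a median log2 difference of -0.07 and 11 at an unadjusted p under 0.05, all lower. Complex III to V subunits were above 0 in 1 of 36, with a median of -0.07 and 14 at an unadjusted p under 0.05, all lower. None of these genes was called. With 1 library left out, the number lower at an unadjusted p under 0.05 ran from 6 (without 9M-Irreg replicate 2 or 5 or 15M-Irreg replicate 5) to 13 for complex I and from 9 (without 9M-Irreg replicate 5 or 15M-Irreg replicate 5) to 18 for complex III to V, with medians of -0.08 to -0.05 and -0.08 to -0.06. Differences were small: Ndufa3 had a log2 difference of -0.15 and went from 46.97 to 53.78 CPM at 9 months to 41.83 to 47.7 CPM at 15 months, and Ndufb9 had one of -0.12 (adjusted p = 0.272), from 133.8 to 143.7 CPM to 118.9 to 135.3 CPM.

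In both lists 0 of 36 genes were without overlap between the groups. Ndufa4, now assigned to cytochrome c oxidase and a member of neither list, did not overlap. It was at 164.1, 168.2 and 174.1 CPM at 9 months and 145.5, 155.0 and 161.8 CPM at 15 months (log2 difference -0.13, adjusted p = 0.272 in edgeR). In the alternatives other than leaving out a library its log2 difference ran from -0.15 to -0.06. Atp5k, a small subunit of ATP synthase, was at 46.08, 54.32 and 57.65 CPM and 42.26, 47.39 and 53.59 CPM (log2 difference -0.17, SE 0.06, adjusted p = 0.463). Cox6c and Cox4i1, of cytochrome c oxidase, had log2 differences of -0.10 and -0.09, and Uqcr10, of complex III, one of -0.15. The 13 genes transcribed in the mitochondrion itself lay above 0 in 2 of 13, with a median of -0.05 and none at an unadjusted p under 0.05. That median was -0.01 without 9M-Irreg replicate 4 and -0.03 without 15M-Irreg replicate 3, with 5 of 13 above 0 each time, and -0.07 without 9M-Irreg replicate 5, with 2 lower at an unadjusted p under 0.05. The transcript of mt-Co1, the largest catalytic subunit of cytochrome c oxidase, overlapped, at 15460 to 18960 CPM and 15590 to 18040 CPM.

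These values stood beside a difference in transcript length. The median transcript length was 713 bases for complex I genes and 721 for complex III to V genes, against 3000 for genes higher at an unadjusted p under 0.05, 1550 for those lower and 2420 for the other genes tested. Ribosomal protein genes, also short, lay above 0 in 3 of 80 with a median of -0.07. With a smooth correction for transcript length within each library, complex I genes were above 0 in 13 of 36 (median -0.03, 2 lower and 1 higher at an unadjusted p under 0.05), complex III to V genes in 3 of 36 (median -0.03, 2 lower), and ribosomal protein genes in 22 of 80 (median -0.02). For homeostatic microglia genes, with a median transcript length of 1920 bases, the direction was the same with that correction.

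**Figure D4:**
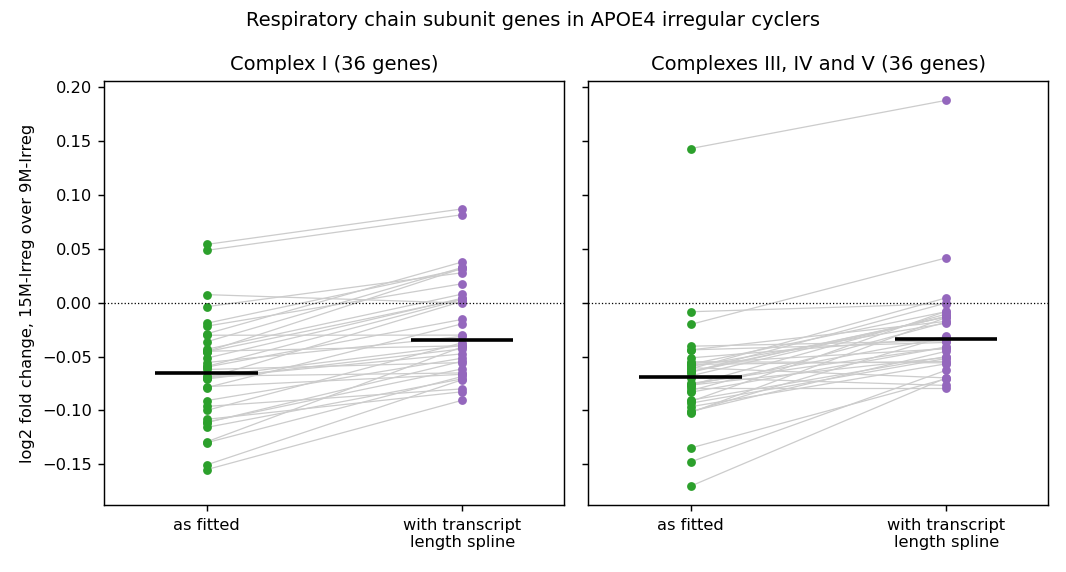
Log2 difference, 15M-Irreg minus 9M-Irreg in APOE4, of 36 complex I genes and 36 complex III to V genes as fitted and with the transcript length correction; points are genes and bars are medians. The medians go from -0.07 to -0.03 in both sets.

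Upstream of the respiratory chain, tricarboxylic acid cycle genes lay above 0 in 6 of 29, with a median of -0.03 and 5 at an unadjusted p under 0.05, all lower. With 1 library left out that number ran from 2, without 15M-Irreg replicate 7 (10 of 29 above 0), to 7, and it was 3 without 9M-Irreg replicate 1 or 15M-Irreg replicate 2. Among the 5 were the malate dehydrogenases Mdh1 (-0.09) and Mdh2 (-0.08) and the isocitrate dehydrogenase subunits Idh3g (-0.08) and Idh3a (-0.06). Glycolysis genes lay above 0 in 10 of 23 with a median of -0.02; Ldhb, the lactate dehydrogenase subunit that favours lactate use, had a log2 difference of -0.13 (unadjusted p = 0.00357). Genes of the PGC-1α, NRF1 and AMPK network, which govern mitochondrial biogenesis, lay above 0 in 10 of 27, with a median of -0.01 and none at an unadjusted p under 0.05. The glycolysis median turned to 0.01 without 15M-Irreg replicate 2 and was -0.03 without 9M-Irreg replicate 4. That of the PGC-1α network turned to 0.003, with 16 of 27 above 0, without 9M-Irreg replicate 6, and 2 of its genes were lower at an unadjusted p under 0.05 without 9M-Irreg replicate 5 or 15M-Irreg replicate 2. Ppargc1a itself was at 40.9 to 46.17 CPM and 38.91 to 46.21 CPM, with a log2 difference of -0.09 (SE 0.05, unadjusted p = 0.0768).

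The 15 genes with the smallest p in the lower direction included Ndufb9, Ndufa4 and Ppif, the mitochondrial cyclophilin (-0.15). The ribosomal proteins Rpl5 (-0.20) and Rpl41 (-0.16) were also among them, and none of these genes was called. Mpdu1, which works in dolichol-linked sugar transfer, did not overlap, at 34.15 to 36.61 CPM and 28.82 to 33.48 CPM (log2 difference -0.17, adjusted p = 0.197), nor did Fbxw2, a ubiquitin ligase subunit, at 61.17 to 66.28 CPM and 52.66 to 59.63 CPM. Groups that did not overlap in the lower direction were found for 21 genes in all (0.113%). The smallest adjusted p of the lower genes was 0.0995, for the noncoding Gm17275 (log2 difference -0.84).

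Myelin genes named by the study for its hippocampal RNA lay above 0 in 16 of 18, with a median of 0.11 and 3 at an unadjusted p under 0.05. Pmp22, Erbb3 and Sox10, a transcription factor of the oligodendrocyte lineage, had log2 differences of 0.26, 0.39 and 0.30. The myelin protein genes Mbp and Mag had 0.10 and 0.14, while Mal and Mobp had -0.12 and -0.01. Oligodendrocyte sums overlapped, at 5130 to 6287 CPM and 5163 to 7207 CPM. The study shows these genes on libraries that include those compared here, so the list is not independent evidence of its direction. How the study selected them is not given in the sources used here.

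Neuronal content and most neuronal lists lay near 0. Neuronal markers were above 0 in 3 of 8 (median -0.02), synapse genes in 14 of 32 (median -0.01, 1 higher at an unadjusted p under 0.05) and interneuron genes in 8 of 17 (median 0.00). Dentate gyrus markers had a median of -0.08, CA1 of -0.05, CA2 of -0.07 and CA3 of 0.01, and cortex, striatum and thalamus markers of -0.05, 0.04 and 0.08. Single libraries moved these medians: with 1 left out they ran from -0.11 (without 9M-Irreg replicate 4) to 0.01 (9M-Irreg replicate 6) for dentate gyrus, from -0.13 (15M-Irreg replicate 7) to 0.01 (15M-Irreg replicate 5) for cortex, from -0.01 (15M-Irreg replicate 7) to 0.10 (15M-Irreg replicate 5) for striatum and from 0.03 (9M-Irreg replicate 6) to 0.12 (9M-Irreg replicate 4) for thalamus. For CA1, CA2 and CA3 they ran from -0.09 (15M-Irreg replicate 6) to -0.01 (9M-Irreg replicate 1), from -0.09 (9M-Irreg replicate 3) to -0.01 (15M-Irreg replicate 7) and from -0.07 (15M-Irreg replicate 5) to 0.04 (9M-Irreg replicate 6). No direction is read from these lists, nor from the neuronal, synapse and interneuron medians, which also changed sign with 1 library left out. Immediate early genes, which follow recent activity, lay above 0 in 19 of 25 with a median of 0.04. With 1 library left out that median ran from -0.01, without 9M-Irreg replicate 1 (11 of 25 above 0), to 0.10, without 9M-Irreg replicate 4, and it was also -0.01 without 15M-Irreg replicate 6. Oligodendrocyte precursor genes lay above 0 in 10 of 14 with a median of 0.03, which ran from 0.008 to 0.05 with 1 library left out (8 to 12 above 0). Neurogenesis genes lay above 0 in 9 of 26 and below 0 in 17, with a median of -0.025. At an unadjusted p under 0.05, 2 were higher and 1 was lower. The members ran from -0.60 to 0.79, the highest being Neurod4, and Nes, an intermediate filament of progenitors, had a log2 difference of 0.29. No direction is read from this list.

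Blood markers, the haemoglobin genes among them, lay above 0 in 0 of 4, with a median of -0.36 and 2 lower at an unadjusted p under 0.05, Hbb-bt (-0.50) and Hba-a2 (-0.39). In the APOE3 step they lay above 0 in 4 of 4 with a median of 0.30. For the difference between genotypes 3 of the 4 had an unadjusted p under 0.05, none called. In APOE4 15M-Acyc over 9M-Reg they also lay above 0 in 4 of 4, with a median of 0.19. Their summed level had a median of 195.6 CPM in APOE4 9M-Irreg and 142 CPM in APOE4 15M-Irreg. In the other groups the medians ran from 84.48 CPM (APOE3 15M-Acyc) to 127.6 CPM (APOE3 15M-Irreg). The part of the high APOE4 9M-Irreg level was not tested. In the APOE4 irregular step the median log2 difference was -0.54 without 9M-Irreg replicate 3, with 4 lower at an unadjusted p under 0.05. It was -0.21 without 9M-Irreg replicate 5, with 0. The T cell marker Cd3e had a count of 0 in 6 of the 13 libraries.

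Genes of steroid hormone receptors and steroid synthesis, the axis that changes across the transition, lay above 0 in 15 of 28 with a median of 0.01. A single member, Gper1, the membrane estrogen receptor, had an unadjusted p under 0.05, with a log2 difference of 0.39. With 1 library left out the median of this list ran from 0.004 to 0.03, with 0 to 2 members higher at that p. Glucocorticoid target genes lay above 0 in 5 of 20 (median -0.07, 1 lower at an unadjusted p under 0.05), and circadian genes in 8 of 20 (median -0.03), with the clock outputs Dbp, Per3 and Ciart at -0.30, -0.22 and -0.39 and the activator Arntl at 0.18. Leaving out 1 library, the circadian median ran from -0.06, without 9M-Irreg replicate 5, to 0.01, without 9M-Irreg replicate 3, and the number lower at an unadjusted p under 0.05, which was 3, ran from 0 (without 9M-Irreg replicate 4 or 15M-Irreg replicate 1, 2, 3 or 5) to 4. The glucocorticoid median reached -0.12 without 15M-Irreg replicate 7 and -0.11 without 15M-Irreg replicate 6, and 3 of its genes were lower at that p without 15M-Irreg replicate 5. Cholesterol synthesis genes lay above 0 in 15 of 24 (median 0.03), lipid transport genes in 16 of 26 (median 0.02), and senescence genes in 8 of 14 (median 0.00), and heat shock genes had a median of 0.01. The medians of the last 3 lists changed sign with 1 library left out, and that of cholesterol synthesis ran from 0.01, without 9M-Irreg replicate 1, to 0.07, without 9M-Irreg replicate 6.

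The same age step in APOE3 irregular cyclers, 7 against 6 other libraries, had 0 genes called (0%), 1278 genes at an unadjusted p under 0.05 (6.88%; 3.82% higher, 3.06% lower) and a smallest adjusted p of 0.166 in edgeR. DESeq2 called 3, and 48.8% of all genes had a log2 difference above 0. The test of the difference between the genotypes' steps called 0 genes (0%), with 1027 at an unadjusted p under 0.05 (5.53%; 2.87% higher, 2.66% lower), 51% of genes above 0 and a smallest adjusted p of 0.741, and DESeq2 called 0. DESeq2 with the authors' factors called 1 gene, lower, with an adjusted p of 0.00236. The APOE4 15M-Acyc group against the APOE4 9M-Reg group had 4 genes called (0.0215%; 0.0108% higher and 0.0108% lower), none of them among the 4 above. In that comparison 1452 genes had an unadjusted p under 0.05 (7.81%; 3.91% higher and 3.91% lower), and 51.9% lay above 0.

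Homeostatic microglia genes had medians of 0.22 in the APOE4 irregular cyclers, 0.18 in the APOE3 irregular cyclers and 0.20 in the acyclic-over-regular step, and lay above 0 in 17 of 17 each time. Disease-associated microglia genes had medians of 0.20, 0.17 and 0.23 in the same order, and Cst7 and Clec7a had log2 differences of 2.95 and 1.68 in the acyclic-over-regular step (unadjusted p = 1.72e-05 and 8.15e-05). Interferon response genes had medians of 0.26, 0.07 and 0.20. Reactive astrocyte genes had 0.20, 0.06 and 0.14, and complement genes 0.22, 0.07 and 0.06.

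The 2 vascular marker lists had larger medians in both APOE4 steps than in the APOE3 step, a difference that was not tested for a list. Endothelial markers lay above 0 in 7 of 8 in every step, APOE3 included. Their medians were 0.17 in APOE4 irregular cyclers, 0.09 in APOE3 irregular cyclers and 0.19 in the acyclic-over-regular step. Pericyte and smooth muscle markers lay above 0 in 8 of 8 in APOE4 irregular cyclers, 3 of 8 in APOE3 irregular cyclers and 8 of 8 in the acyclic-over-regular step, with medians of 0.28, -0.03 and 0.28; the first of these was 0.15 without 15M-Irreg replicate 2. Flt1 had log2 differences of 0.31, 0.04 and 0.28, and Kdr 0.59, 0.17 and 0.58. The test of the difference between genotypes gave an unadjusted p of 0.0204 for Flt1 and 0.0152 for Myh11, neither called over all genes. Meningeal markers lay above 0 in 8 of 10 in the APOE4 irregular step, 0 of 10 in APOE3 and 8 of 10 in the acyclic-over-regular step, with medians of 0.35, -0.24 and 0.16, and their part in the result was not tested.

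Complex I genes had medians of -0.07, 0.00 and 0.00 in the 3 comparisons and lay above 0 in 3, 13 and 18 of 36. Complex III to V genes had medians of -0.07, -0.03 and -0.01, and mitochondrially encoded genes of -0.05, 0.06 and 0.06. Ribosomal protein genes, given for their like length, had medians of -0.07, -0.01 and -0.03. Myelin genes had 0.11, 0.18 and 0.03. Choroid plexus markers were above 0 in 0 of 12, 0 of 12 and 6 of 12, with medians of -0.39, -0.79 and 0.00, and none had an unadjusted p under 0.05 in the APOE4 irregular step. In that step the median ran from -0.64, without 9M-Irreg replicate 1, to -0.19, without 15M-Irreg replicate 6 or 7, and was 0.08 without the 4 libraries low in these markers.

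**Figure D5:**
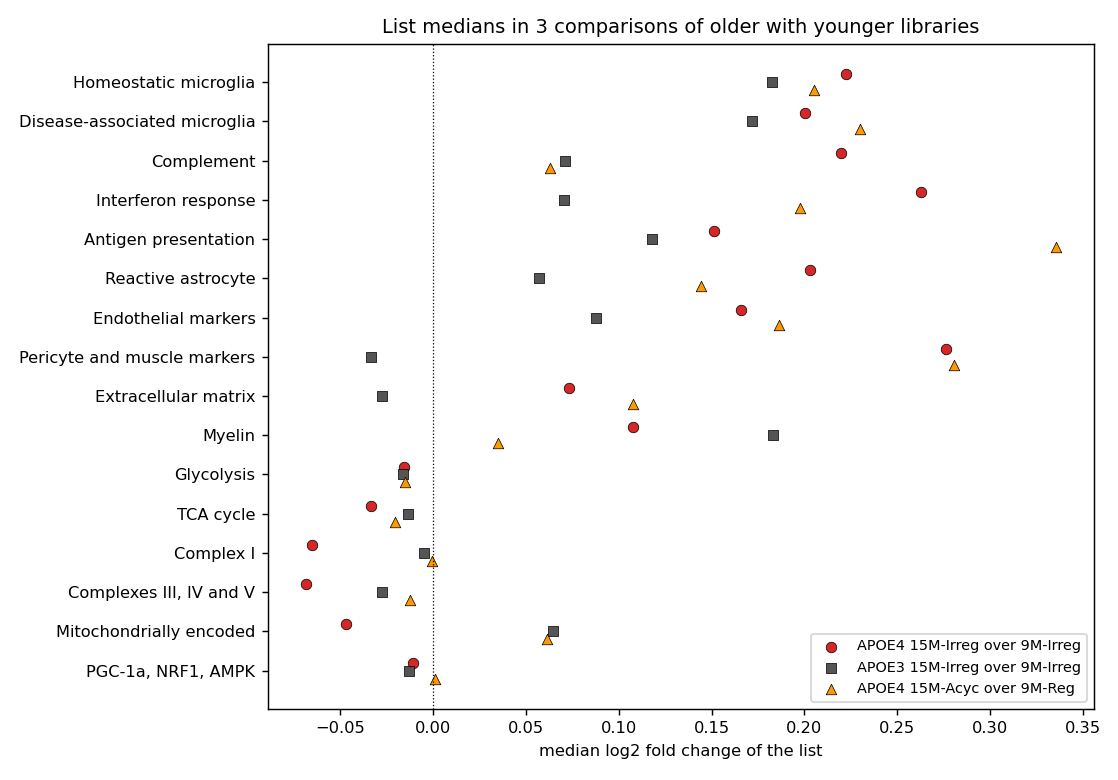
Median log2 difference of each gene list in 3 age steps that share no library: APOE4 15M-Irreg over 9M-Irreg, APOE3 15M-Irreg over 9M-Irreg, and APOE4 15M-Acyc over 9M-Reg. Medians of the homeostatic and disease-associated microglia lists lie between 0.17 and 0.23 in each step, and pericyte and smooth muscle markers lie at 0.28 in both APOE4 steps and at -0.03 in APOE3.

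The 4 called genes kept their direction in every alternative that tested them, which for Itgax leaves out the filter on every library, but the number called did not hold. Leaving out 1 library at a time gave between 0 and 10 called genes: 0 without 9M-Irreg replicate 1, 3 or 6 or 15M-Irreg replicate 4, and 10 without 15M-Irreg replicate 7. C4b was called in 8 of these 13 fits, Mpeg1 in 6, Kdr in 3 and Itgax in 3, with log2 differences of 0.54 to 0.70, 0.35 to 0.45, 0.56 to 0.62 and 1.62 to 2.13. Without the 4 libraries low in choroid plexus markers 0 genes were called (641 higher and 705 lower at an unadjusted p under 0.05, smallest adjusted p 0.0615), with C4b at 0.62, Mpeg1 at 0.43, Kdr at 0.67 and Itgax at 2.22. In a fit of the compared groups alone, C4b and Mpeg1 had an adjusted p of 0.356 and Itgax one of 0.315. With DESeq2 and the authors' factors Itgax had one of 0.545, so these calls were lost there. In edgeR with the transcript length correction Kdr and Itgax had adjusted p of 0.0531 and 0.0527 (log2 differences 0.56 and 1.92). With no filter on low counts both had 0.0531 (0.59 and 1.94), so neither was called in these fits. DESeq2 with its own size factors called 17 genes, 15 of them higher.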

How the data were processed

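Hippocampal RNA of 59 mice, 1 library each, was studied. Per the study's methods, the authors sequenced stranded poly(A) libraries as paired ends and assigned reads to mouse Ensembl transcripts with Salmon (version 0.15.0 per the processing notes). Of the files they deposited, the gene table used here holds estimated counts (expected counts summed over transcripts by tximport), which were rounded to whole numbers. The other deposited gene table is a normalized signal, in which each count had been scaled by a DESeq2 factor for that gene and library, and served only to recover those factors. The deposited quantification of each library gives TPM, which was used for levels per length and for transcript lengths; 100837 of the 134325 transcripts, holding 97.56% of TPM, were matched through GENCODE M21 (GRCm38), and 24021 genes had a length. No column of per-sample values was passed over (0 columns).

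Samples were grouped by their labels alone. Genes with 10 or more counts in 3 or more libraries (18584 of 24439) were kept, scaled by TMM (factors 0.968 to 1.03) and fitted across all 10 groups with the quasi-likelihood model of edgeR 4.0.16 (R 4.3.3, limma 3.58.1, common dispersion 0.01523). Tests were two-sided, adjusted by Benjamini-Hochberg over all genes tested, and called at 0.05. CPM are TMM-scaled, and fold changes are those of the fit with its SE. Libraries held 20845347 to 29995186 counts in the groups compared; a library with 0 counts of a gene allows up to 3, counting error only.

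Genes named were the 15 with the smallest p in each direction, members of the lists described, genes the study names for this RNA, mouse Apoe, and up to 10 with the smallest p for the difference between genotypes; genes of the ribosome and the Pcdhb cluster were taken up after their values were seen. Some genes stand in more than 1 list, and a few genes that this rule names are not reported here. The members and the lists were chosen with earlier results of these data known. The alternatives were RLE factors, 2 other filters, the compared groups alone, a length correction, DESeq2 1.42.0 with its own or the authors' factors, and each library left out. A joint GC and length correction, the fit without the 4 libraries low in choroid plexus markers and the fit with that marker sum as a covariate were chosen after seeing the data. Tested on simulated counts for this comparison, with 50 of 18584 genes changed at each fold, the pipeline recovered 64% at 1.25-fold, 96% at 1.5-fold, 88% at 2-fold and 100% at 4-fold, with 14 false calls. The changed genes were drawn from those with a mean of 50 or more counts, so genes with counts as low as Itgax and Cst7 were not covered. Many more genes were changed than were called in the data, which eases the adjusted threshold, so these rates need not hold for this comparison. Promoter windows are from RefSeq (GRCm38.p6, 32851 entries).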

Additional observations from a re-analysis of the deposited data

Results flagged for a closer look

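Within each group, 280 sets of values were searched for a highest or lowest library set far apart from the rest. The sets were the genes taken up for the text and the marker sums, and they share libraries. Chance marks about 1 in 20 of independent sets picked without regard to their values, a rate that does not apply to these sets. In all, 26 sets were marked. 6 of them are 15M-Irreg replicate 4, the highest of its group for Mpeg1 (40.75 CPM, others 30.13 to 33.86), Itgax (1.75, others 0.4291 to 0.9748), Itgam (24.54, others 19.08 to 21), H2-D1 (82.58, others 43.07 to 58.1), Psmb8 (7.166, others 2.774 to 4.258) and B2m (94.33, others 55.67 to 68.59).

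In 9M-Irreg, replicate 1 was low for Cd9 (26.69 CPM) and for the choroid plexus sum (53.3 CPM, others 3782 to 5665) and high for Col4a1 (68.96) and Gm41318 (0.4144). Replicate 2 was high for the oligodendrocyte sum (6287). Replicate 3 was high for Adcyap1 (9.855) and low for C3 (3.067, others 4.003 to 4.433). Replicate 4 was low for Ndufa11 (53.63) and Mdh2 (251.6) and high for the pericyte sum (192.7) and the meningeal sum (1112, others 507.7 to 675.7). Replicate 5 was high for the pituitary sum (29.48). Replicate 6 was high for Rpl5 (56.36) and Cst7 (0.4448) and low for Atp5k (46.08, others 53.99 to 57.65) and the astrocyte sum (2714).

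In 15M-Irreg, replicate 2 was high for the endothelial sum (255 CPM, others 207.3 to 226.9), replicate 5 was high for Mobp (1531, others 1055 to 1210), and replicate 6 was low for Uqcr10 (57.36) and high for the pituitary sum (31.16, others 1.458 to 4.625). The pituitary marker Fshb had 0 counts in all 13 libraries. In the edgeR fit 0 genes had a step that differed between APOE4 and APOE3 at an adjusted p under 0.05, with 1027 at an unadjusted p under 0.05, and DESeq2 called 0 with its own size factors and 1 with the authors' factors.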

How the results depend on the processing

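No paired analysis was possible because the replicate numbers used here follow accession order and tie no 15-month animal to a 9-month one. In APOE4 irregular cyclers the 4 genes called became 17 with DESeq2 and its own size factors, 11 with DESeq2 and the authors' factors, 2 with no filter on low counts, 2 in the compared groups alone, 2 with the transcript length correction and 0 without the 4 libraries low in choroid plexus markers; the other alternatives gave 3 to 5. The 2 in the compared groups alone were Kdr and Flt1, with C4b and Mpeg1 at an adjusted p of 0.356 and Itgax at 0.315. Itgax had a log2 difference of 1.41 and an adjusted p of 0.545 with the authors' factors. Leaving out each library gave 0 to 10 calls: 1 without 9M-Irreg replicate 4 or 5 or 15M-Irreg replicate 3, 2 without 9M-Irreg replicate 2 or 15M-Irreg replicate 1, and 0 or 10 without those named in the results. The APOE3 step went from 0 to 3 with DESeq2, 4 with the authors' factors and 0 to 4 with each library left out, 4 without APOE3 15M-Irreg replicate 7; the difference between genotypes went from 0 to 1 with the authors' factors. APOE4 15M-Acyc over 9M-Reg went from 4 to 1 in the compared groups alone, 33 and 27 with DESeq2 and the 2 kinds of factors, 38 with the choroid plexus covariate, and 0 to 13 with each library left out (0 without 9M-Reg replicate 1; 1, 7 and 13 without 15M-Acyc replicates 2, 1 and 4). The cause of these shifts was not tested.

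Of 123 gene results, 114 kept their sign in every alternative. With the authors' factors Nrf1 turned from -0.0042 to 0.0296 and Adcyap1 from 0.0973 to -0.1491; without the 4 libraries low in choroid plexus markers Cldn11 turned to -0.0289 and Mog to -0.0066; with the covariate Apoe turned to 0.0297. With 1 library left out, the log2 difference ran from -0.0384 to 0.0251 for Nrf1, -0.0479 to 0.0947 for Cd9, -0.0791 to 0.0575 for Mobp, -0.0007 to 0.1049 for Olig2, -0.0251 to 0.1539 for B2m (lowest without 15M-Irreg replicate 4), -0.0029 to 0.095 for Cldn11 and -0.0041 to 0.0842 for Mog.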

Other observations

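The clustered protocadherins of the Pcdhb family, taken up after Pcdhb6 and Pcdhb2 were seen among the smallest p, lay above 0 in 19 of 22 genes in APOE4 irregular cyclers, with a median log2 difference of 0.18 and 7 higher at an unadjusted p under 0.05. In APOE3 irregular cyclers they lay above 0 in 19 of 22 (median 0.16, 5 higher), and in APOE4 15M-Acyc over 9M-Reg in 19 of 22 (median 0.15, 6 higher). Members of this cluster are close copies, so the assignment of reads among them is uncertain.

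The genes with the smallest p for the difference between the genotypes' steps included Rcan2, a calcineurin regulator (-0.37, APOE4 minus APOE3), Zfp609 (0.26), Gxylt2 (0.81), Abtb1 (-0.27) and Mpdu1 (-0.22); none was called. Immediate early genes had medians of 0.04, 0.19 and 0.31 in the APOE4 irregular, APOE3 irregular and acyclic-over-regular steps, and 25 of 25 lay above 0 in the last; the first of these medians turned to -0.01 without 9M-Irreg replicate 1 or 15M-Irreg replicate 6. Cholesterol synthesis genes lay above 0 in 22 of 24 in the last step, with a median of 0.17 and 11 higher at an unadjusted p under 0.05, against 15 of 24 and a median of 0.03 in the APOE4 irregular cyclers.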
